A study of Mus musculus with 14 samples.

Results

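The genes described here encode 10 peptidases that cut angiotensin peptides: Enpep, Anpep, Lnpep, Mme, Thop1, Nln, Prep, Prcp, Ctsa and Dpp4. They were taken by gene symbol from deposited tables of gene counts for mouse liver and kidney. All 10 were found in both tables, out of 22263 genes listed in either, and all 10 passed the filter on low counts in both tissues. No measured value entered the rule, but the members were chosen with earlier results of these data known.

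The mice were adult males of 12 weeks, all transgenic for human angiotensinogen with the -6A haplotype, and RNA of their tissues was sequenced. Every group carried the transgene, so no library shows these tissues without it. The 4 groups were liver on a normal diet (n = 4 libraries), liver on high salt (n = 4), kidney on a normal diet (n = 3) and kidney on high salt (n = 3). The salt dose and the length of the diet are not given in the sources used here. The labels do not say that libraries of a group came from separate animals, so p-values measure only the spread between these libraries, which may be technical.

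Angiotensinogen is cut by renin to angiotensin I, and angiotensin-converting enzyme then releases angiotensin II, the peptide that raises blood pressure through its type 1 receptor. The peptidases described here act on those peptides. Aminopeptidases shorten angiotensin II step by step from its first residue, and other enzymes convert angiotensin I or II to the heptapeptide bound by the Mas receptor, or degrade them further. In the kidney several of these enzymes are densely packed on the brush border of the proximal tubule, where they break down filtered peptides.

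The members fall into known chemical classes. Enpep, Anpep, Lnpep, Mme, Thop1 and Nln are zinc metallopeptidases, and each had 1 in-frame copy of the zinc-binding motif HEXXH (X is any residue) in its GENCODE M21 coding sequence. Prcp, Ctsa, Prep and Dpp4 are serine peptidases, and none of the 4 coding sequences held that motif. No motif of serine peptidases was searched for, so the coding sequences do not show that class here. The windows below are shown because the motif is the part of the enzyme that binds the catalytic metal. The 15 motif bases are in capitals and each line is read 5′ to 3′ on the strand of the gene.
Enpep: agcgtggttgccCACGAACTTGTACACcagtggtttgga
Anpep: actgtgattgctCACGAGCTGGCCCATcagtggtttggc
Lnpep: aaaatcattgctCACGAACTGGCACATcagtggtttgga
Mme: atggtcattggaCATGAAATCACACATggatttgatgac
Thop1: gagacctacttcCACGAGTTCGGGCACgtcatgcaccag
Nln: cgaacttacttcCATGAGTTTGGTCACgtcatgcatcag

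On GRCm38 the motif codons lie in exon 5 of Enpep at chr3:129309772-129309786 (minus strand), in exon 6 of Anpep at chr7:79839166-79839180 (minus) and in exon 6 of Lnpep at chr17:17570877-17570891 (minus). Those of Mme lie in exon 18 at chr3:63362021-63362035 (plus), those of Thop1 in exon 9 at chr10:81080576-81080590 (plus) and those of Nln in exon 9 at chr13:104046213-104046227 (minus). All 6 are coding exons. Over the 39 bases shown, Thop1 and Nln had 31 bases in common, Anpep and Lnpep 32, and Enpep shared 30 with Lnpep and 29 with Anpep. Enpep shared 18 of the 39 bases with Mme and 12 with Thop1. Mme shared 20 with Anpep, 21 with Lnpep, 14 with Thop1 and 13 with Nln. Over the 39 bases the windows therefore sort into the 3 aminopeptidases, the pair of oligopeptidases and Mme on its own, nearer to the aminopeptidases. The 15 motif bases alone do not sort them so, since Mme shared 11 with Lnpep and Enpep shared 10 with Anpep.

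Whole genes, on the same build, run as follows. Enpep covers chr3:129269175-129332720, Anpep chr7:79821803-79861059, Lnpep chr17:17521410-17625050, Mme chr3:63241537-63386030 and Thop1 chr10:81070035-81082559. Nln covers chr13:104023057-104109614, Prep chr10:45067203-45167198, Prcp chr7:92874470-92934583, Ctsa chr2:164832873-164841032 and Dpp4 chr2:62330073-62412231. Dpp4 shares 232 exon bases with the antisense gene Gm13561, and Ctsa shares 819 with Neurl2 and Pltp, which lie on the other strand. Whether counting used the strand is not given in the sources used here, so reads of Dpp4 and Ctsa cannot be told apart from those of their neighbours over these stretches. The other 8 share no exon base with another annotated gene.

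The promoter of Enpep is shown because Enpep was the 1 member whose transcript passed the test for diet. The window runs from 250 bases before to 50 bases after the RefSeq start (chr3:129332700-129332999, minus strand, GRCm38.p6) and has a GC content of 51.3%. Capitals mark matches, on either strand, to the TATA box letters TATAAA and the CCAAT box letters CCAAT.
Enpep promoter: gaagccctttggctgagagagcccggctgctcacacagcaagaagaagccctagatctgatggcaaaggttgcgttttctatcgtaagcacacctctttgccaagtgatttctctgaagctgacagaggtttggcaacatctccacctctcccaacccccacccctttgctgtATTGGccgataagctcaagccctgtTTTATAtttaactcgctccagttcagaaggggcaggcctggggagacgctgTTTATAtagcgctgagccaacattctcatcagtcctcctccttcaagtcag

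The window held 2 TATAAA matches, with leftmost bases at positions -52 and -1, counted with the RefSeq start as 0. It also held 1 CCAAT match at -77, and none of these matches overlapped. The first base of Enpep on its strand in GENCODE M21, chr3:129332720, lies downstream of that RefSeq start. Positions counted from the GENCODE base would thus be further upstream. Of 32851 mouse promoter windows of the same length, 13.6% held TATAAA and 37.4% held CCAAT on either strand. The GC box letters GGGCGG, held by 35.7% of all windows, were not found in the windows of Enpep, Dpp4 and Ctsa. Those of Nln, Anpep and Lnpep held 7, 4 and 4, and each window of Mme, Thop1 and Prcp held 1 or 2. The Dpp4 window also held TATAAA, at -227. Windows were found for 9 of the 10 members, all except Prep. A match is a description of letters only, and no binding or promoter activity was measured.

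Each liver library held between 37267778 and 51487382 gene counts, and each kidney library between 16046094 and 22004927. Normal diet liver libraries keep the numbers 1 to 4 of their labels. Those on high salt are headed HS5 to HS8 in the table, names that no sample label uses, so they enter as 4 replicates without a number. The tissue labels were checked against markers. Alb, the main hepatocyte secretory product, ranged from 32441 to 85226 CPM in liver and from 2.70 to 35.7 in kidney. Markers of thick ascending limb and distal tubule summed to 2234 to 3439 CPM in kidney and to at most 2.85 in liver. CPM are counts relative to a common library total, after scaling library sizes by the trimmed mean of M values (TMM).

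Some libraries stood apart. Transcripts of the mitochondrial genome made up 2.30% and 2.06% of counts in normal diet liver libraries 1 and 2, against 11.3% to 29.6% in the other 6 liver libraries. HS5 and HS6 were nearly alike: their chi-square per gene was 1.59, where counting noise alone would give about 1, against 9.83 to 62.8 for other liver pairs of 1 diet. They still differed by more than counting noise, so library values are given for both, and fits and mean levels that rest on them are given with both as separate libraries and with the pair as 1.

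High salt was first compared with the normal diet in liver, the main source of plasma angiotensinogen. Enpep, the aminopeptidase that removes the first residue of angiotensin II, was 2.09-fold higher on high salt (log2 fold change 1.06 ± 0.19, SE), the only 1 of 10 members to pass an adjusted p of 0.05. Of all 15130 genes tested, 1.00% passed in either direction, 0.595% as higher and 0.410% as lower. Mme and Lnpep also had positive estimates and Thop1 a negative one, without passing. The rest lay within 0.15 of 0 on the log2 scale.

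**Figure D1:**
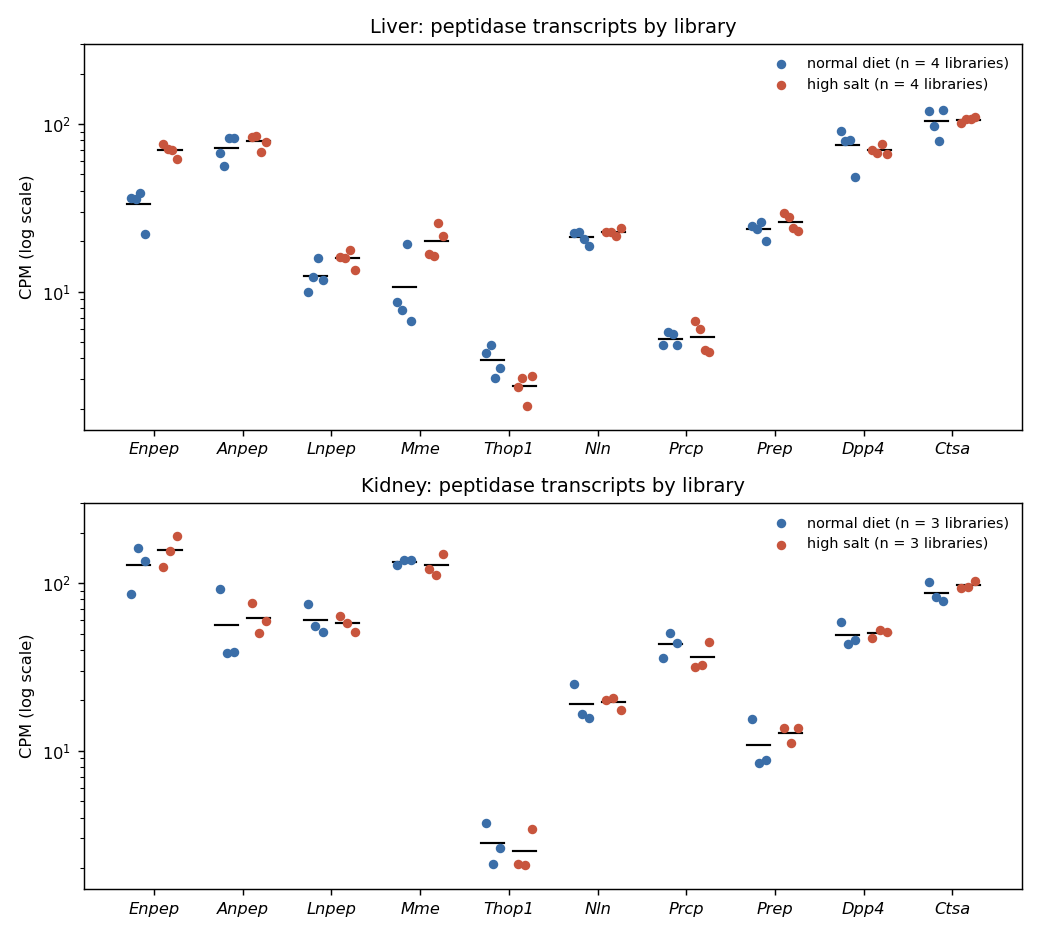
CPM of each peptidase (log scale) in every library, liver above and kidney below, with normal diet and high salt side by side; bars are group means. In liver the 4 high salt Enpep points (62.1 to 75.8 CPM) all sit above the 4 normal diet points (22.1 to 39.0), while for the other 9 members the diets overlap.

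Enpep, also called glutamyl aminopeptidase or aminopeptidase A, stood at 36.0, 35.9, 39.0 and 22.1 CPM in normal diet liver libraries 1 to 4. On high salt it stood at 75.8, 70.6, 69.7 and 62.1 CPM in HS5 to HS8. The lowest high salt library lay above the highest normal diet library, so the groups did not overlap, which was also the case for 12.5% of all genes tested in liver (6.44% with high salt above and 6.05% below). Group means were 33.3 ± 7.58 and 69.6 ± 5.66 CPM (SD, n = 4 each). The 95% interval of the log2 fold change ran from 0.65 to 1.48, and the adjusted p was 0.0424 (edgeR quasi-likelihood test, Benjamini-Hochberg).

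That call was close to the threshold. It was kept in 12 of 20 alternative analyses, over which the log2 fold change stayed between 0.90 and 1.19 and the adjusted p between 0.000103 and 0.161. With HS5 and HS6 summed to 1 library the value was 1.04 and the adjusted p 0.161. Without normal diet libraries 1 and 2 it was 1.19 with an adjusted p of 0.0952. Leaving out 1 library ended the call for normal diet 1 (adjusted p 0.0973), normal diet 2 (0.0947), HS5 (0.159), HS6 (0.158), HS7 (0.056) and HS8 (0.105), all by edgeR, and kept it for normal diet 3 and 4.

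Several marker lists also separated the liver libraries by diet. All 10 hepatocyte markers were in the table, and their summed level ran from 55842 to 83800 CPM on the normal diet and from 92148 to 110247 on high salt, with no overlap. Alb made up 51.7% to 77.3% of that sum, and the other 9 overlapped between the diets, at a summed 23401 to 40478 CPM on the normal diet and 22549 to 25021 on high salt. All 8 stellate cell and fibroblast markers were in the table, at a summed 76.3 to 141 CPM on the normal diet and 149 to 175 on high salt, again with no overlap. Without Dcn, the most abundant of them, the sums were 32.2 to 60.4 and 58.6 to 80.3 CPM, which overlapped. The 5 acute phase markers summed to between 2952 and 58321 CPM on the normal diet and to between 1664 and 2254 on high salt, the other way round and again without overlap, which was also the case without Hp, the most abundant of them (1453 to 38797 and 622 to 904 CPM). Their part in the Enpep difference was not tested.

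The normal diet library with the highest acute phase sum, library 4, was the one with the lowest Enpep, at 22.1 CPM, and its summed neutrophil markers stood at 50.3 CPM against at most 1.43 in the other liver libraries. Without it the Enpep log2 fold change was 0.90 (edgeR adjusted p 0.0263). Summed markers of Kupffer cells, endothelial cells, cholangiocytes, T cells and B cells overlapped between the diets. All 7 markers of proximal tubule segments 1 and 2 were in the liver table and summed to between 23.8 and 47.2 CPM on the normal diet and between 29.4 and 38.6 on high salt. Slc4a4 made up 79.1% to 98.9% of that sum, at 23.2 to 46.7 CPM. Without Slc4a4 the sum ran from 0.476 to 1.48 CPM on the normal diet. On high salt it was 1.26 CPM in HS5, 1.51 in HS6, 8.07 in HS7 and 4.54 in HS8. The part of these markers in the peptidase values was not tested. Slc34a1 reached at most 4.12 CPM in a liver library and Lrp2 2.24, and the other 4 (Slc5a2, Slc22a6, Cubn and Slc5a12) at most 0.894. In bulk RNA, a change in the number of cells of a type and a change in RNA per cell cannot be told apart.

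Anpep, the alanyl aminopeptidase that acts on angiotensin III, stood at 66.8, 56.4, 82.2 and 82.4 CPM on the normal diet and at 83.9, 84.98, 67.8 and 77.7 on high salt. The diets overlapped and the log2 fold change was 0.13, with an interval from -0.24 to 0.50. Lnpep, an insulin-regulated aminopeptidase that binds angiotensin IV, stood at 9.89, 12.3, 15.9 and 11.8 CPM and at 16.2, 15.8, 17.7 and 13.4. Its estimate was 0.34 (interval -0.05 to 0.73, edgeR adjusted p 0.290), and 3 of the 4 normal diet values lay below all high salt values. Of the 3 aminopeptidases, then, Enpep alone passed, and no test compared it with Anpep or Lnpep.

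Mme, or neprilysin, the membrane endopeptidase that makes the heptapeptide from angiotensin I, stood at 8.65, 7.77, 19.3 and 6.70 CPM in normal diet liver libraries 1 to 4. On high salt the values were 16.8, 16.3, 25.7 and 21.6. Normal diet library 3 lay among the high salt libraries, and the other 3 normal diet libraries lay below all of them. The log2 fold change was 0.93 ± 0.33 (SE, interval 0.19 to 1.66) with an adjusted p of 0.167 by edgeR. Without library 3 it was 1.37 and passed (adjusted p 0.0211), and over all 20 alternatives the adjusted p ran from 0.00109 to 0.480. With HS5 and HS6 summed the value was 1.01, and without normal diet libraries 1 and 2 it was 0.63.

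Thop1, Nln and Prep are oligopeptidases that cut short peptides inside cells. Thop1, thimet oligopeptidase, was scarce: 4.30, 4.80, 3.05 and 3.51 CPM on the normal diet and 2.70, 3.07, 2.08 and 3.13 on high salt, from 97 to 181 counts a library. Its log2 fold change was -0.51, with an interval from -1.01 to -0.01 and an edgeR adjusted p of 0.225, and the diets overlapped. Nln, neurolysin, lay between 18.7 and 22.6 CPM on the normal diet and between 21.3 and 24.04 on high salt (log2 fold change 0.11, interval -0.18 to 0.39). Prep, prolyl oligopeptidase, lay between 20.1 and 26.0 CPM and between 23.1 and 29.5 (0.14, interval -0.18 to 0.47).

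Prcp and Ctsa remove residues from the other end of the peptide, Prcp after a proline and Ctsa as a lysosomal carboxypeptidase. Prcp lay between 4.78 and 5.72 CPM on the normal diet and between 4.34 and 6.71 on high salt (log2 fold change 0.04, interval -0.40 to 0.48). Ctsa lay between 79.4 and 121 CPM and between 101 and 110 (0.03, interval -0.34 to 0.39). Dpp4, a dipeptidyl peptidase of the cell surface, lay between 48.0 and 91.3 CPM and between 66.1 and 76.1 (-0.10, interval -0.53 to 0.34). The high salt values of Ctsa and Dpp4 lay within the spread of their normal diet values, and those of Prcp spread wider on both sides.

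Over all 10 in liver, 8 had a log2 fold change above 0, as had 48.0% of all genes tested, and their median was 0.12 against -0.02 over all genes. With HS5 and HS6 summed, the log2 fold changes beside those of Enpep and Mme were 0.091 for Anpep, 0.34 for Lnpep, -0.54 for Thop1, 0.10 for Nln, 0.096 for Prep, -0.043 for Prcp, 0.036 for Ctsa and -0.088 for Dpp4, and none of the 10 passed (edgeR). Without adjustment, 3 of the 10 (Enpep, Mme and Thop1) had p under 0.05, against 21.2% of all genes. The non-members of the pathway were counted from lists chosen with earlier results of these data known. By edgeR, none of 7 tested renin-angiotensin genes, 15 tested peptidase relatives and 7 tested brush border and membrane enzymes passed for diet in liver. Their median log2 fold changes were 0.22, 0.02 and -0.20. The last list shares genes with the first and holds peptidases and Treh, which encodes trehalase, a glycosidase.

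In kidney the diets were compared in the organ that filters and degrades angiotensin peptides. No member passed for diet, and 0% of the 15847 genes tested passed (edgeR). Unadjusted, 0 of 10 members and 318 genes, or 2.01%, had p under 0.05. DESeq2 called 11 genes and no member, and no member passed in any of 17 alternatives. All 10 members overlapped between diets, where 6.92% of all genes did not (3.85% with high salt above and 3.07% below). In 6 of the 10 the log2 fold change was above 0, as in 46.3% of all genes, and the median was 0.03 against -0.02.

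**Figure D2:**
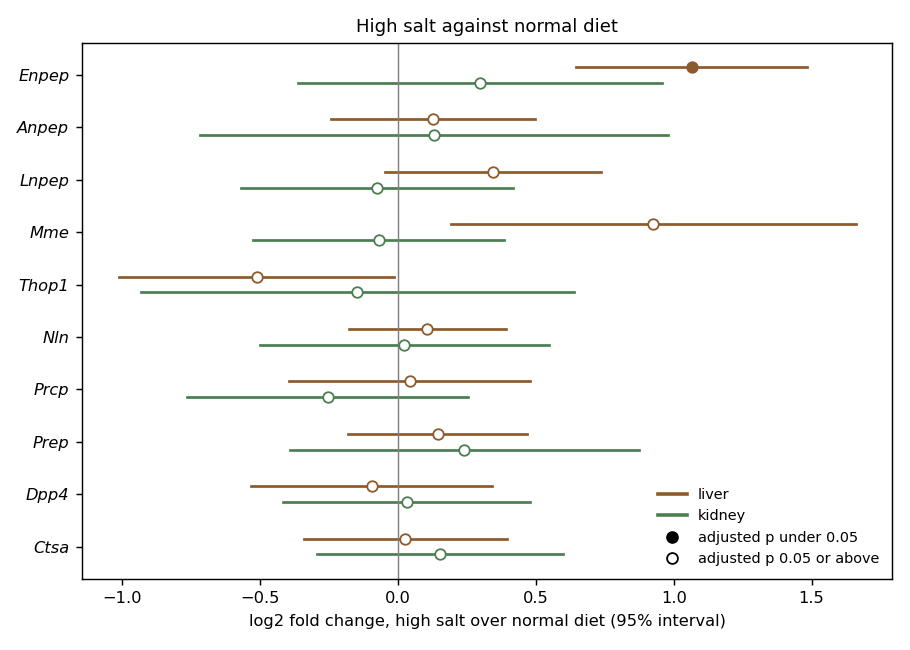
Log2 fold change of high salt over normal diet for each peptidase in liver (n = 4 per diet) and kidney (n = 3 per diet), with 95% intervals; filled points passed an adjusted p of 0.05. The liver value of Enpep (1.06) is the only filled point, and all 10 kidney intervals cross 0.

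Enpep stood at 85.9, 163.0 and 134.9 CPM in normal diet kidney libraries 1 to 3 and at 124.4, 155.8 and 190.9 CPM on high salt. The high salt values were not all above the normal diet ones, and library 1 on the normal diet was the lowest of the 6. The log2 fold change was 0.30 (interval -0.36 to 0.96), and without that library it was 0.08. A kidney change as large as the liver estimate of 1.06 lies just outside that interval.

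Mme stood at 128.7, 136.9 and 136.7 CPM on the normal diet and at 121.3, 112.5 and 149.1 on high salt. Anpep stood at 92.6, 38.2 and 39.1 and at 76.4, 50.3 and 59.2, and Lnpep at 75.1, 55.5 and 51.4 and at 63.5, 58.1 and 51.0. Normal diet library 1 was the highest of its group for both aminopeptidases. The log2 fold changes were -0.07 for Mme (interval -0.53 to 0.38), 0.13 for Anpep (-0.72 to 0.98) and -0.08 for Lnpep (-0.57 to 0.42).

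Prcp had the most negative kidney estimate. It stood at 35.8, 50.2 and 44.2 CPM on the normal diet and at 31.7, 32.5 and 44.8 on high salt, a log2 fold change of -0.26 (interval -0.77 to 0.25). Ctsa, the other carboxypeptidase, stood at 102.2, 82.2 and 78.8 CPM and at 93.8, 95.3 and 103.0 (0.15, interval -0.29 to 0.60). The pair thus had estimates of opposite sign, neither beyond its spread.

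Dpp4 lay between 43.3 and 59.0 CPM on the normal diet and between 47.3 and 52.5 on high salt (log2 fold change 0.03). Nln lay between 15.7 and 25.0 CPM and between 17.5 and 20.7 (0.02), and Prep between 8.43 and 15.4 and between 11.1 and 13.7 (0.24). Thop1 was again the scarcest, from 2.11 to 3.70 CPM and from 2.08 to 3.41 (-0.15), on 33 to 75 counts a library. All edgeR adjusted p-values for diet in kidney were 0.9996.

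Kidney normal diet library 1 was the highest of its group for 7 members (Anpep, Ctsa, Dpp4, Lnpep, Nln, Prep and Thop1) and the lowest for the other 3 (Enpep, Mme and Prcp). It also had the highest summed markers of proximal tubule segments 1 and 2 (3938 CPM, against 2603 and 2775 in its group) and of thick ascending limb and distal tubule (3439 against 2505 and 2615). Its endothelial (105 CPM), podocyte (113) and stellate cell and fibroblast sums (92.7) were the lowest of the 6 kidney libraries, and its mitochondrial share (41.2%) the highest. Without it the log2 fold changes were 0.68 for Anpep and 0.58 for Prep (edgeR adjusted p 0.242 and 0.249), against 0.13 and 0.24 with it. Those values rest on normal diet libraries 2 and 3, whose chi-square per gene was 4.19, against 48.2 for each with library 1. The part of those markers in the values was not tested.

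Whether the diet acted differently in the tissues was tested as an interaction in 1 fit of all 14 libraries. None of the 10 members passed, and 0% of 16633 genes did by edgeR, against 148 genes by DESeq2. Positive values, a more positive effect in liver, were found for 6 of 10 members and 51.6% of genes. Mme and Enpep, 2 of 10, had unadjusted p under 0.05, against 10.1% of all genes (1681 genes). The diet effect of Mme was larger in liver than in kidney by 1.01 on the log2 scale (interval 0.12 to 1.89, edgeR adjusted p 0.451), and that of Enpep by 0.77 (0.01 to 1.53, adjusted p 0.490). Over 22 alternatives the adjusted p ran from 0.0639 to 0.701 for Mme and from 0.306 to 0.662 for Enpep. The values were 1.09 and 0.76 when HS5 and HS6 were summed. The diet effect on Enpep is therefore not shown to differ between liver and kidney.

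Kidney and liver differed far more than the diets did. On the normal diet all 10 members passed between tissues, 4 higher in kidney and 6 lower, as did 65.1% of 16633 genes (32.2% higher and 32.9% lower). Mme, Prcp, Lnpep and Enpep were the 4 higher in kidney, at 8.75, 5.70, 3.36 and 2.63 times the liver level. Unadjusted, p was under 0.05 for all 10 and for 68.0% of genes, and 4 of 10 were higher in kidney against 49.5% of genes. Tissue cannot be told apart from the table of quantification, since each tissue has its own.

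Values for this comparison are CPM on a scale shared by both tissues, so they differ from those above. Mme went from 12.5 ± 6.58 CPM in liver (SD, n = 4) to 109 ± 4.00 in kidney (SD, n = 3), a log2 fold change of 3.13 ± 0.30 (SE). Prcp went from 6.22 ± 0.71 to 35.4 ± 5.92 (2.51 ± 0.21), and Lnpep from 14.7 ± 2.68 to 49.4 ± 10.2 (1.75 ± 0.19). Enpep went from 39.6 ± 9.77 to 104 ± 31.9 (1.40 ± 0.25). In none of these 4 did any kidney library fall within the liver range, and edgeR adjusted p-values were at most 0.000182.

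The 6 others were lower in kidney. Prep differed most, from 28.1 ± 3.60 CPM in liver to 8.85 ± 3.18 in kidney (log2 fold change -1.66 ± 0.23), then Dpp4 from 89.1 ± 24.6 to 40.2 ± 6.80 (-1.15 ± 0.22) and Thop1 from 4.68 ± 1.13 to 2.29 ± 0.66 (-1.03 ± 0.30). The log2 fold changes of Anpep, Ctsa and Nln were -0.88, -0.79 and -0.69. Anpep was the 1 member whose libraries overlapped between tissues, because of kidney library 1 (75.3 CPM against 69.8 to 94.7 in liver), so 9 of 10 did not overlap, against 58.8% of all genes (29.0% higher in kidney and 29.8% lower). All 3 oligopeptidases of the cell interior were thus in the lower set, and the carboxypeptidases were split, Prcp higher and Ctsa lower.

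**Figure D3:**
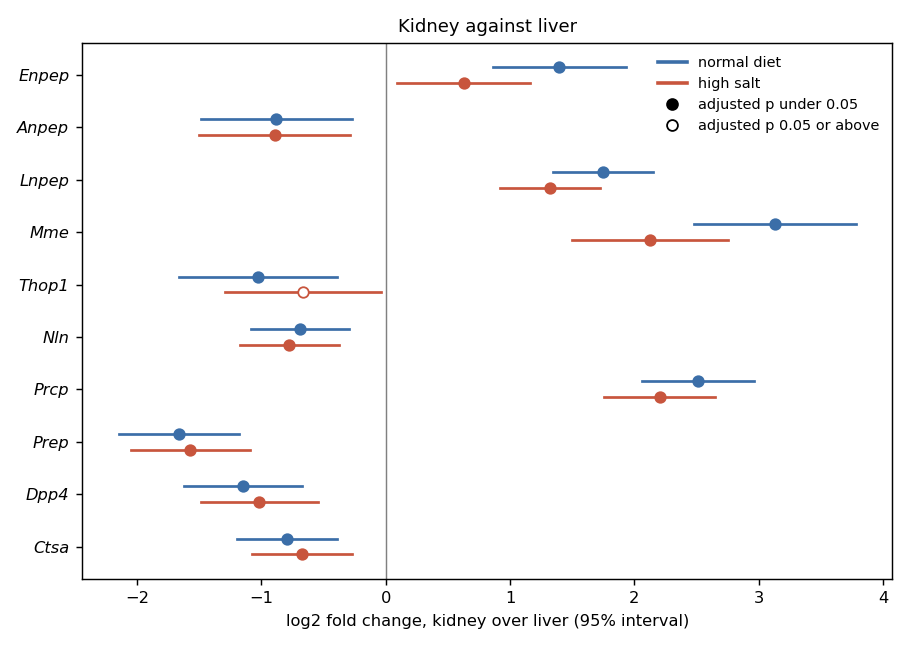
Log2 fold change of kidney over liver for each peptidase, with normal diet and high salt libraries (4 liver and 3 kidney each) compared separately and with 95% intervals; filled points passed an adjusted p of 0.05. Mme (3.13 and 2.12), Prcp, Lnpep and Enpep lie to the right of 0 on both diets, the other 6 lie to the left, and Thop1 on high salt is the only open point.

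Some of these calls depended on the setting. Anpep lost its call without kidney normal diet library 2 (edgeR adjusted p 0.075) or 3 (0.109) and when only normal diet libraries were fitted (0.0575). Upper quartile scaling moved the median of all genes by 0.30 on both diets, and RLE scaling by 0.13 on high salt. On the normal diet Anpep was then -0.87 and Nln -0.66 relative to that median, and their own adjusted p-values were 0.0822 and 0.0612. Thop1 lost its call without normal diet liver libraries 1 and 2 (-0.71, adjusted p 0.0705). Enpep, Mme, Lnpep, Prcp, Prep and Dpp4 passed in all 23 alternatives.

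The same contrast on high salt compared other libraries, within the same fit of all 14 libraries. There 9 of 10 members passed, 4 higher and 5 lower, against 62.7% of genes (30.0% higher and 32.7% lower), and 9 of 10 did not overlap, against 69.1% of genes (32.9% higher and 36.2% lower). Unadjusted, p was under 0.05 for all 10 and for 66.0% of genes, and 4 of 10 estimates were above 0 against 48.7% of genes. The log2 fold changes were 2.20 for Prcp, 2.12 for Mme, 1.32 for Lnpep and 0.63 for Enpep, and -1.57 for Prep, -1.01 for Dpp4, -0.89 for Anpep, -0.77 for Nln and -0.67 for Ctsa. Thop1 did not pass (-0.66, edgeR adjusted p 0.0623, and 0.0248 to 0.280 over 22 alternatives, of which 4 called it). Anpep lost its call without kidney high salt 2 (0.0592) and, with Ctsa, under upper quartile scaling (0.0860 and 0.0774). All 10 signs were as on the normal diet. Summing HS5 and HS6 left 8 of 10 past the threshold, all but Enpep and Thop1. The values were then 2.27 for Prcp, 2.03 for Mme, 1.32 for Lnpep, -1.54 for Prep, -1.03 for Dpp4, -0.87 for Anpep, -0.78 for Nln, -0.69 for Ctsa and -0.65 for Thop1.

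Enpep was the weakest of the 4 higher in kidney on high salt, at 82.9 ± 7.74 CPM in liver and 128 ± 26.9 in kidney. Its adjusted p was 0.0402 by edgeR and passed in 14 of 22 alternatives, between 0.00399 and 0.197. With HS5 and HS6 summed, the value was 0.64 and the adjusted p 0.0662. It was also lost with no filter on low counts (0.0511) and without HS5 (0.0504), HS6 (0.0673), HS7 (0.0711), HS8 (0.0922), kidney high salt 2 (0.0842) or kidney high salt 3 (0.44, adjusted p 0.197). The normal diet and high salt contrasts compared different libraries, but both came from the same fit of all 14 libraries. Scaling and the estimate of spread were thus shared, so the high salt contrast is not an independent repeat. Each contrast also shares libraries with a diet contrast.

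Other genes of the pathway were compared between the tissues as a frame for the members. Of 9 tested renin-angiotensin genes on the normal diet, 5 were higher in kidney and 2 lower, against 32.2% and 32.9% of all genes. Ren1 and Mas1 did not pass the filter on low counts in liver alone and entered the test through kidney. Ace, which makes angiotensin II, was higher by 7.58 on the log2 scale, and the receptor-associated protein gene Agtrap by 4.34. Agt, the precursor, and Agtr1a, the type 1 receptor gene, were lower in kidney, at -4.87 and -0.87. In normal diet liver the mean level of Ace was 0.397 CPM, within that tissue's scale, against 112 in kidney.

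All 10 tested brush border and membrane enzymes outside the members, Ace and Treh among them, were higher in kidney, against 32.2% of all genes. Ggt1, Mep1a and Mep1b of that list did not pass the filter on low counts in liver alone. Their kidney counts let them into the test, so their direction was set by the filter. Dpep1, a dipeptidase of the brush border, was higher by 5.95 on the log2 scale. Anpep and Dpp4, which also sit at the cell surface, had estimates in the other direction. Of 15 tested relatives of the members, 4 were higher and 9 lower, against 32.2% and 32.9% of all genes. Lower ones included Ece1 (-2.17), Erap1 (-1.28) and Aopep (-1.66), and higher ones Prepl (0.82), Scpep1 (0.98) and Dpp8 (0.78).

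To compare the members with each other, CPM were divided by the merged exon length of each gene in kilobases, on the scale shared by the tissues. In normal diet kidney, Enpep led with 22.2 ± 6.77 CPM per kilobase (SD, n = 3), then came Ctsa with 15.2, Anpep with 11.2 and Mme with 9.47. Each of those 4 overlapped with the next. Prcp (6.44) and Dpp4 (6.36) overlapped with each other and lay below Mme. Lnpep (3.49), Nln (1.84), Prep (0.81) and Thop1 (0.45) each lay clear of the member above it.

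On high salt the kidney order changed only between Dpp4 (6.50) and Prcp (5.39), which overlapped. There Enpep, with 27.2 ± 5.71 CPM per kilobase, lay above Ctsa (16.8) without overlap, and Ctsa above Anpep (12.2), also without overlap. Mme followed with 9.01. By group mean Enpep was thus the most abundant of the 10 per length in kidney on both diets, and it ranked first within 5 of the 6 kidney libraries. In normal diet library 1 (14.8) it lay below both Anpep (18.2) and Ctsa (17.6).

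In normal diet liver the order was another one. Ctsa led with 26.2 ± 5.11 CPM per kilobase (SD, n = 4), followed by Anpep (20.5), Dpp4 (14.1) and Enpep (8.42), each overlapping with the next. The rest lay clear of Enpep: Nln 2.96 and Prep 2.57, which overlapped, and below them Prcp (1.13), Mme (1.08), Lnpep (1.04) and Thop1 (0.92), each overlapping with the next. Mme, above Prcp, Dpp4 and Lnpep in kidney, was thus among the last 4 in liver. Within each normal diet liver library, Anpep lay above Dpp4, Dpp4 above Enpep and Nln above Prep.

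On high salt Enpep moved past Dpp4 in liver, at 17.6 ± 1.65 CPM per kilobase against 13.1 ± 0.67, and the 2 did not overlap. Ctsa (26.8) and Anpep (22.7) stayed above it. The range of Anpep overlapped with that of Enpep, although Anpep lay above Enpep within each high salt liver library. Mme, at 2.07, lay above Lnpep (1.33) without overlap, while on the normal diet these 2 overlapped. With HS5 and HS6 averaged to 1 library, an alternative chosen after seeing the data, the order of the 10 was the same. Enpep then stood at 17.2 ± 1.58 CPM per kilobase (SD, n = 3) and Mme at 2.18, and Anpep (22.0) no longer overlapped with Enpep. With the length of the longest transcript in place of merged exons, 25 of 40 levels moved by more than 1 SD and 11 ranks within a group changed.

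**Figure D4:**
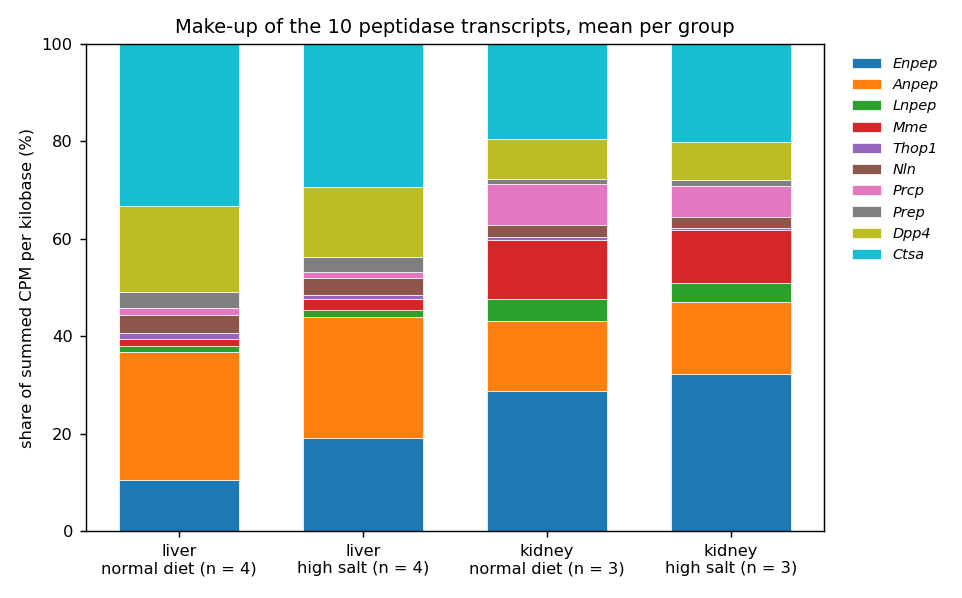
Mean share of each member in the summed CPM per kilobase of the 10 peptidases, in percent, for the 4 groups. Enpep takes 10.6% in normal diet liver, 19.2% in high salt liver and 28.9% and 32.3% in kidney, while Ctsa and Anpep are the widest bands in liver.

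As a share of the summed CPM per kilobase of the 10, Enpep took 10.6% in normal diet liver (7.23% to 12.4% over libraries) and 19.2% on high salt (17.6% to 20.5%, with a mean of 19.0% when HS5 and HS6 were averaged). In kidney it took 28.9% (18.3% to 36.0%) and 32.3% (27.2% to 35.7%). Mme took 1.38% and 2.28% in liver and 12.3% and 10.7% in kidney. Ctsa took the largest share in liver, with 33.2% in the normal diet group and 29.3% in the high salt group. Shares add to the whole, so a rise of Enpep lowers the others.

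The genes whose pattern over libraries was most like that of Enpep were found by the root mean square difference of log2 CPM after centring each gene. Over the 8 liver libraries and 12183 genes they were Ttl, a tubulin-modifying enzyme, with 0.14, H2-Q6 (0.18), Alb (0.19), Bcl2l11 (0.20), a regulator of cell death, and 1700001L05Rik (0.20), where the median gene was at 0.69. They were chosen for a pattern over the same libraries in which Enpep separated the diets, so their diet values restate that choice and are given as a description, with no test. The log2 fold changes for diet were 1.09 for Ttl, 0.85 for H2-Q6, 0.76 for Alb, 1.03 for Bcl2l11 and 0.80 for 1700001L05Rik. H2-Q6 has near-identical copies between which reads could be split, so its value is uncertain.

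Over the 6 kidney libraries and 11819 genes the 5 most alike were Inpp4b, a lipid phosphatase (0.038), Cyp2d9, a cytochrome P450 (0.10), Tgfbi, a matrix protein (0.12), Gm15285 (0.12) and Ypel3 (0.12), where the median gene was at 0.47. Their log2 fold changes for diet, again a description, lay between 0.18 and 0.46. The liver and kidney sets had no gene in common. Cyp2d9 belongs to a family of similar genes, so its counts are uncertain too.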

How the data were processed

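RNA of liver (4 libraries per diet) and kidney (3 per diet) was sequenced from SMARTer libraries, per the labels. Per the file names, the authors quantified genes with Partek E/M and deposited expected counts, and a normalized signal per gene on a linear scale whose method is not given in the sources used here. The submitters' processing notes name Partek 7.0, STAR 2.5.3a, DESeq2 and mm10, without role or order. The annotation release and filters are not given in the sources used here. Of the columns that hold samples, 0 were unused.

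After rounding, expected counts entered the quasi-likelihood test of edgeR 4.0.16 under R 4.3.3, with TMM scaling and the filterByExpr filter. Each tissue was fitted alone for diet. Interaction and tissue contrasts came from 1 fit of 14 libraries over the 17600 genes in both tables. Benjamini-Hochberg adjusted p-values under 0.05, over all genes tested, were called. The scripts were tested on simulated data. Alternatives used DESeq2 1.42.0, limma 3.58.1 with voom or on log2 of the deposited signal (pseudocounts 1 and 0.1), other scalings and filters, and left-out libraries.

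All 10 members are named in every comparison, with the 5 genes most like Enpep per tissue among genes with a mean of at least 50 counts (log2 CPM, prior count 2) and list genes that passed, at most 3 per list and direction. Members, lists, tests and alternatives were chosen with earlier results of these data known. Intervals are 95%. Exon lengths and coding sequences came from GENCODE M21 and promoters from RefSeq (GRCm38.p6). Gene starts in the files equalled those of GENCODE M21 for 10 of 10 members. The human transgene was not analysed here. A gene of these lists is not reported here.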

Additional observations from a re-analysis of the deposited data

Results flagged for a closer look

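Of 20 liver groups of 4 libraries (10 members on 2 diets), 1 held a library far from the others by Dixon's test: Mme on the normal diet, at 19.3 CPM in library 3 against 6.70 to 8.65 in the other 3. By chance about 1 in 20 such groups has one. Kidney groups, with 3 libraries, were not checked in this way. Without library 3 the Mme log2 fold change for diet in liver was 1.37 in place of 0.93, and the edgeR adjusted p was 0.0211 in place of 0.167, within a range of 0.00109 to 0.480 over all 20 alternatives.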

How the results depend on the processing

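In 40 of 40 combinations of member and group the spread between libraries (coefficient of variation) was above the counting noise of its depth. Over all alternatives 958 log2 values of members kept direction and call, 29 lost a call, 9 gained one and 44 changed sign. In liver, 1 member and 152 genes passed for diet. With 1 library left out in turn these became 0 to 2 and 12 to 765, with HS5 and HS6 summed 0 and 12, without normal diet libraries 1 and 2 together 0 and 52, with voom and sample weights 5 and 8284 (Enpep, Mme, Anpep, Lnpep and Thop1), with DESeq2 1122 genes, and with all 14 libraries in 1 fit 260 genes. DESeq2 called 11 genes in kidney. For the interaction, DESeq2 called 148 genes, the stricter filter 2, the fit without libraries 1 and 2 together 1, and leaving out single libraries 0 to 7. The causes were not tested.

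Values that changed sign never passed. In liver, voom gave Ctsa -0.039, HS5 and HS6 summed gave Prcp -0.043, and leaving out libraries 1 and 2 gave Anpep -0.065 and Dpp4 0.12. With 1 library left out, Prcp ran from -0.082 to 0.13, Dpp4 from -0.27 to 0.0066 and Ctsa from -0.094 to 0.10. In kidney, voom gave Lnpep 0.067 and Thop1 0.12. With 1 library left out, Lnpep ran from -0.18 to 0.11, Thop1 from -0.43 to 0.10, Anpep from -0.089 to 0.68, Nln from -0.10 to 0.27, Dpp4 from -0.056 to 0.18 and Mme from -0.20 to 0.012. For the interaction, Anpep was -0.037 with RLE scaling and with DESeq2, -0.0035 with upper quartile scaling, -0.015 with the stricter filter, -0.0026 without mitochondrial genes, -0.013 with HS5 and HS6 summed and -0.13 without libraries 1 and 2, which gave Prep 0.0064 and Dpp4 0.15. With 1 library left out, Anpep ran from -0.53 to 0.24, Nln from -0.15 to 0.21 and Prep from -0.42 to 0.066.

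Same-numbered libraries of both kidney diets did not all deviate together (r = 0.53, 0.51 and -0.15), nor did liver and kidney on the normal diet (-0.22, 0.25 and -0.30), and not every library correlated best with its own number, so the numbers were not taken as a pairing. With the replicate block, 0 members and 0 genes passed for diet in kidney, and 6 members passed between tissues on the normal diet, where the block left out library 4 of liver and the high salt libraries. Anpep, Thop1, Nln and Ctsa lost their calls there.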
